A study of Mus musculus with 6 samples.

Results

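The genes described here are those of Piezo2, of the stomatin family and of the acid-sensing ion channels, followed across 3 cell subsets of the mouse dorsal root ganglia, which hold the cell bodies of the sensory neurons. The genes were taken by symbol from the deposited table of all genes, in which 9 of 23029 genes matched: Fam38b (the older symbol of Piezo2), Stom, Stoml1, Stoml2, Stoml3, Accn2 (now Asic1), Accn1 (now Asic2), Accn3 (now Asic3) and Accn4 (now Asic4). All cells came from ganglia of GINIP+/mcherry animals, which carry an mCherry reporter at 1 allele of the gene of GINIP, and were sorted by GINIP and by binding of isolectin B4 (IB4). DP cells carried both marks and are labelled Mrgprd+ sensory neurons, C-LTMR cells, unmyelinated fibres that answer to light touch (C-LTMR: C-fibre low-threshold mechanoreceptor), carried GINIP without IB4, and DN cells lacked either label and are all that remained. There were 2 libraries of each subset, and n = 2 wherever a mean ± SD is given. The labels give no age, sex or number of animals, and they name the second library of each subset after the first, so what the p-values measure is the spread among these libraries, possibly a technical one.

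Piezo2 forms a mechanically gated cation channel of touch and proprioceptive neurons, which opens when the membrane is deformed. Stomatin and its relatives are membrane proteins that gather in cholesterol-rich domains and bind channels, among them Piezo and acid-sensing channels. The acid-sensing channels are sodium channels gated by protons, built of 3 subunits of the same or of different genes, so the mix of subunits sets how sensitive the channel is to acid. In sensory neurons they are studied for pain from tissue acidosis and for touch.

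Values are RPKM, reads scaled by gene length in kilobases and by library size in M reads. Levels of different genes can then be set side by side only as far as reads cover genes evenly. The amplification kit primes at the poly(A) tail, and the evenness of coverage was not tested. Orders, shares and ratios across genes carry that limit. Depth was estimated at 31.75 to 41.75 M reads per library from the step that 1 read makes in the lowest values. On the log2 scale the correlation over genes between replicates was 0.9945 for DP, 0.9926 for C-LTMR and 0.9876 for DN, against 0.8403 to 0.9554 between libraries of different subsets. The sums of the subset markers followed the labels. The 8 Mrgprd neuron markers summed to 1038 and 1055 RPKM in DP, 141 and 130 in C-LTMR and 24.7 and 27.7 in DN, and the 6 C-LTMR markers to 77.2 and 88.7 in DP, 1311 and 1315 in C-LTMR and 37.4 and 18.5 in DN. In DP over C-LTMR 7 of the 8 genes listed as Mrgprd neuron markers were called higher by the criteria given below (6.65% of all tested genes). The receptor gene Mrgprx1 of that list was called lower, with a log2 fold change of -2.56 (8.52% of all tested genes). DN also held RNA of other cells. The 12 markers of satellite glia and Schwann cells summed to 1268 and 1763 RPKM in DP, 2375 and 3273 in C-LTMR and 8928 and 18550 in DN. Those of vessels and connective tissue (12 genes) summed to 20.5 and 20.3 in DP, 5.22 and 6.39 in C-LTMR and 585 and 898 in DN. In each of these lists 11 of the 12 genes had their highest mean in DN, the exceptions being Pmp22 (highest in C-LTMR) and Pdgfrb (highest in DP). The 12 pan-sensory-neuron genes summed to 10710 and 10280 RPKM in DP, 10730 and 9956 in C-LTMR and 9619 and 7102 in DN. Across such bulk samples, fewer cells of a type and less RNA per cell cannot be told apart.

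In DP and C-LTMR the order of the genes was the same over the first 4 places. Stoml1 was the highest, Accn1 next, then Stoml2 and Fam38b, and no neighbours among these overlapped between libraries. The DN order began with Stoml2, followed by Accn3 and Stoml1, whose libraries overlapped, and then by Accn1 and Stom, which also overlapped. There Fam38b came near the end, overlapping Accn2. In all 3 subsets Stoml3 and Accn4 were the lowest.

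**Figure D1:**
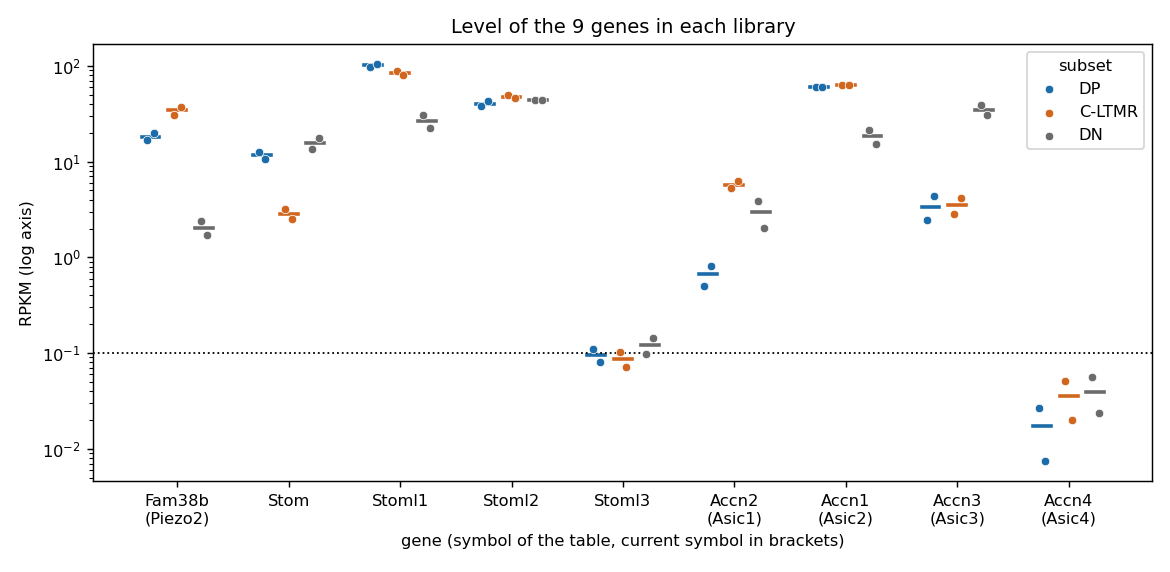
RPKM of the 9 genes on a log axis, with 1 point per library, a bar at the mean of each subset and a dotted line at the filter of 0.1 RPKM. Fam38b, Stoml1 and Accn1 lie lower in DN than in DP and C-LTMR, Accn3 lies higher in DN, Stom is lowest in C-LTMR and Accn2 is lowest in DP.

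Differences were tested with limma on log2(RPKM + 0.1) over the 15544 genes with at least 0.1 RPKM in at least 2 libraries, with p-values adjusted after Benjamini and Hochberg (BH). A gene counts as called where its adjusted p is below 0.05 and its log2 fold change is 1 or more in size. Of the 9 genes 8 passed the filter, and Accn4 did not. In DP over C-LTMR, 2 of the 8 were called, Stom higher and Accn2 lower, where 15.2% of all tested genes were called (6.65% higher and 8.52% lower). In DP over DN, 5 of the 8 were called against 33.3% of all tested genes. Of these 5, Fam38b, Stoml1 and Accn1 were higher (7.75% of all genes were called higher) and Accn2 and Accn3 lower (25.5%). In C-LTMR over DN, 5 of the 8 were called against 32.1% of all tested genes. Here Fam38b, Stoml1 and Accn1 were higher (8.58% of all genes) and Stom and Accn3 lower (23.5%). Any 2 of the comparisons share the libraries of a subset, so their values are given side by side. The median log2 fold change of the 8 genes was -0.07, -0.15 and 0.56 in the same order of comparisons, where that of all tested genes was -0.05, -0.20 and -0.10. The split between higher and lower calls over all genes depended on scaling. In DP over DN 23.3% of calls were higher, against 47.7% after quantile normalization, and in C-LTMR over DN 26.7% against 49.0%. In DP over C-LTMR the share was 43.8%, against 56.9% after rescaling to the pan-sensory-neuron genes.

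**Figure D2:**
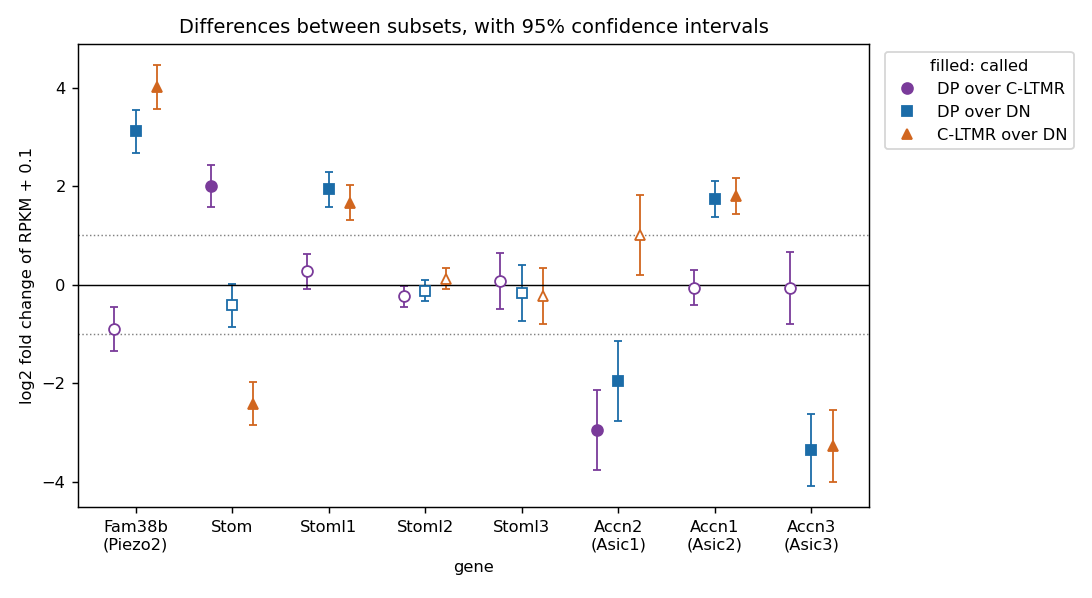
Log2 fold change of RPKM + 0.1 for the 8 tested genes in the 3 comparisons, with 95% confidence intervals from limma; filled symbols were called and dotted lines mark a log2 fold change of 1 in either direction. Fam38b reaches 4.01 in C-LTMR over DN and Accn3 -3.36 in DP over DN, and all 3 intervals of Stoml2 lie between -0.45 and 0.33.

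Fam38b, which encodes Piezo2 (Entrez 667742, GRCm38 chromosome 18, 63010213 to 63387183, minus strand), had the largest log2 fold change of the 8 tested genes. Its level was 16.6 and 19.8 RPKM in DP, 30.8 and 37.6 RPKM in C-LTMR and 2.37 and 1.71 RPKM in DN. The groups did not overlap, and C-LTMR was the highest, DP intermediate and DN the lowest. Fam38b was 16.1-fold higher in C-LTMR than in DN (log2 fold change 4.01 with an SE of 0.19, limma BH-adjusted p = 1.293e-05) and 8.63-fold higher in DP than in DN (3.11, SE 0.19, limma BH-adjusted p = 3.206e-05). Against C-LTMR, the DP level had an adjusted p under 0.05 but missed the fold criterion (log2 fold change -0.90, 95% interval -1.35 to -0.46, limma BH-adjusted p = 0.01215). Leaving out single libraries moved it both ways. It met both criteria without DP replicate 2 (-1.03, limma BH-adjusted p = 0.0379) and with C-LTMR replicate 1 left out (-1.04, limma BH-adjusted p = 0.0296). The adjusted p rose above 0.05 without DP replicate 1 (-0.78, limma BH-adjusted p = 0.0897), with C-LTMR replicate 2 left out (-0.76, limma BH-adjusted p = 0.0787) and with no filter on low values (limma BH-adjusted p = 0.0887). The second deposited table, of TMM-normalized counts, also lists the gene, at 6555 and 7710 in DP, 11651 and 14245 in C-LTMR and 910 and 693 in DN. In DN, the glial and vessel sums were high beside the low Fam38b level, and the pan-neuron sum was lower in replicate 2 than in replicate 1. Rescaled so that the mean log2 level of the pan-sensory-neuron genes was equal, the log2 fold change was 2.90 in DP over DN and 3.52 in C-LTMR over DN, and both calls held. The 12 genes of that list did not move together, so the rescaling need not level neuron content. In DP over DN 2 were called higher (7.75% of all tested genes) and 1, Gap43, lower (-3.04; 25.5%). In C-LTMR over DN 3 were called higher (8.58%) and 1, again Gap43, lower (-1.81; 23.5%). The 10 markers of myelinated mechanoreceptors and proprioceptors, neurons that also use Piezo2, summed to 65.9 and 82.0 RPKM in DP, 126 and 110 in C-LTMR and 131 and 103 in DN. Within that list the genes went both ways, with 2 of the 10 called higher and 4 called lower in C-LTMR over DN, and 1 called higher and 4 called lower in DP over DN.

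The genes whose pattern over the 6 libraries lay nearest to that of Fam38b were Clstn2, Iqgap3 and Plagl1, with root mean square differences of centred log2 values of 0.0874, 0.111 and 0.158 among 12564 genes whose highest subset mean was at least 1 RPKM. Clstn2, a calsyntenin of synapses, averaged 6.38 RPKM in DP and 12.1 in C-LTMR, against 0.727 in DN. Plagl1, a zinc finger transcription factor, averaged 16.4, 30.8 and 1.83 RPKM in DP, C-LTMR and DN. Such nearness is a description over 6 libraries and says nothing of shared control.

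Among the stomatins, Stoml1 (Entrez 69106, GRCm38 chromosome 9, 58253164 to 58262524, plus strand), which binds and inhibits acid-sensing channels in cell systems, was the most abundant in DP and C-LTMR. It stood at 97.4 and 105 RPKM in DP, 87.3 and 80.6 RPKM in C-LTMR and 30.7 and 22.7 RPKM in DN. Both GINIP+ subsets lay above DN without overlap. The difference was 3.82-fold in DP over DN (log2 fold change 1.93 with an SE of 0.15, limma BH-adjusted p = 8.139e-05) and 3.17-fold in C-LTMR over DN (1.67, SE 0.15, limma BH-adjusted p = 0.0001472). In DP over C-LTMR Stoml1 was not called (log2 fold change 0.27, 95% interval -0.09 to 0.62).

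Stom encodes stomatin, the integral protein of the red cell membrane for which the family is named (Entrez 13830, GRCm38 chromosome 2, 35313990 to 35337009, minus strand). Its level was 12.6 and 10.7 RPKM in DP, 3.17 and 2.51 RPKM in C-LTMR and 13.6 and 17.8 RPKM in DN. C-LTMR was the lowest subset, below every library of the others. Stom was 4.003-fold higher in DP than in C-LTMR (log2 fold change 2.001 with an SE of 0.18, limma BH-adjusted p = 0.0004059) and 5.35-fold lower in C-LTMR than in DN (-2.42, SE 0.18, limma BH-adjusted p = 7.314e-05). The DP and DN libraries did not overlap, but the difference was not called (log2 fold change -0.42, 95% interval -0.85 to 0.02). The vessel and connective tissue sums given above followed the same order of subsets as Stom, with DN above DP and DP above C-LTMR. Immune markers (10 genes) were also lowest in C-LTMR and summed to 231 and 259 RPKM in DP, 5.38 and 9.83 in C-LTMR and 61.2 and 114 in DN, and in C-LTMR 2 and 1 of them were at 0. Of the 12 vessel and connective tissue markers 7 were called higher in DP than in C-LTMR, and of the 10 immune markers also 7, of which 2 reached the filter through DP alone, where 6.65% of all tested genes were called higher. Their part in the Stom difference was not tested. Red blood cell genes went the other way. The 8 in the table summed to 5.24 and 6.40 RPKM in DP, 35.6 and 47.9 in C-LTMR and 2.05 and 7.72 in DN, highest where Stom was lowest. Closest to Stom in pattern were Cflar, an inhibitor of caspase-8 (root mean square difference 0.138; means of 3.99 RPKM in DP and 1.11 in C-LTMR, against 5.70 in DN), St3gal6, a sialyltransferase gene (0.139), and Prodh, the proline dehydrogenase gene (0.161).

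Stoml2, a mitochondrial inner membrane stomatin (Entrez 66592, GRCm38 chromosome 4, 43027690 to 43031384, minus strand), was the most even of the members above the filter in every library. It was at 38.3 and 42.5 RPKM in DP, 49.0 and 46.2 in C-LTMR and 44.4 and 43.6 in DN. The groups did not overlap, but the differences were small, and none was called. The widest was in DP over C-LTMR (log2 fold change -0.24, 95% interval -0.45 to -0.03, limma BH-adjusted p = 0.0922).

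Stoml3, the stomatin that sensitises Piezo channels in mouse mechanoreceptors (Entrez 229277, GRCm38 chromosome 3, 53488793 to 53507652, plus strand), was near the filter in every library. It was at 0.111 and 0.0806 RPKM in DP, 0.101 and 0.0717 in C-LTMR and 0.0971 and 0.143 in DN. Read numbers were estimated from the depth and a GENCODE length of 1780 bases. They come to 8.3 and 5.5 in DP, 6.1 and 4.1 in C-LTMR and 6.6 and 8.1 in DN. On the same basis 3 reads are worth 0.04 to 0.053 RPKM. The subsets overlapped and no difference was detectable at this depth. The interval of the log2 fold change ran from -0.50 to 0.64 in DP over C-LTMR, from -0.74 to 0.40 in DP over DN and from -0.81 to 0.33 in C-LTMR over DN. The gene as given in the table ends 1211 bases before the 3′ end of the RefSeq gene and 850 bases before that of GENCODE, while each of the other 8 members ends within 6 bases of both. A gene length shorter than 1780 bases behind the RPKM would make the read numbers too high and the value of 3 reads too low. The amplification kit primes at the poly(A) tail, and the effect of this difference in gene ends on the Stoml3 values was not tested. The values nearest to those of Stoml3 over the libraries were those of Trp53, Hspa14 and Rnaseh2c, but with so few reads behind each Stoml3 value this nearness describes no pattern.

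Stoml1 made up 65.7% and 66.3% of the 4 stomatin genes' summed RPKM in DP, 62.5% and 62.3% in C-LTMR and 34.6% and 26.9% in DN. In DN the largest share was that of Stoml2, at 50.0% and 51.8%. The ratio of Stoml1 to Stom was 7.73 and 9.82 in DP, 27.5 and 32.1 in C-LTMR and 2.26 and 1.27 in DN, with no overlap between subsets.

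The acid-sensing channel genes differed in which subunit led. Summed over the 4 genes, their level was 63.2 and 66.0 RPKM in DP, 71.2 and 73.7 in C-LTMR and 64.2 and 47.7 in DN. Accn1 (Asic2) made up 95.3% and 92.2% of that sum in DP and 88.6% and 85.9% in C-LTMR, against 33.1% and 32.1% in DN. Accn3 (Asic3) made up 3.84% and 6.59% in DP and 3.97% and 5.67% in C-LTMR, against 60.7% and 63.6% in DN. The ratio of Accn1 to Accn3 RPKM was 24.8 and 14.0 in DP and 22.3 and 15.2 in C-LTMR, but 0.546 and 0.505 in DN. DP and C-LTMR overlapped in this ratio and DN lay apart.

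**Figure D3:**
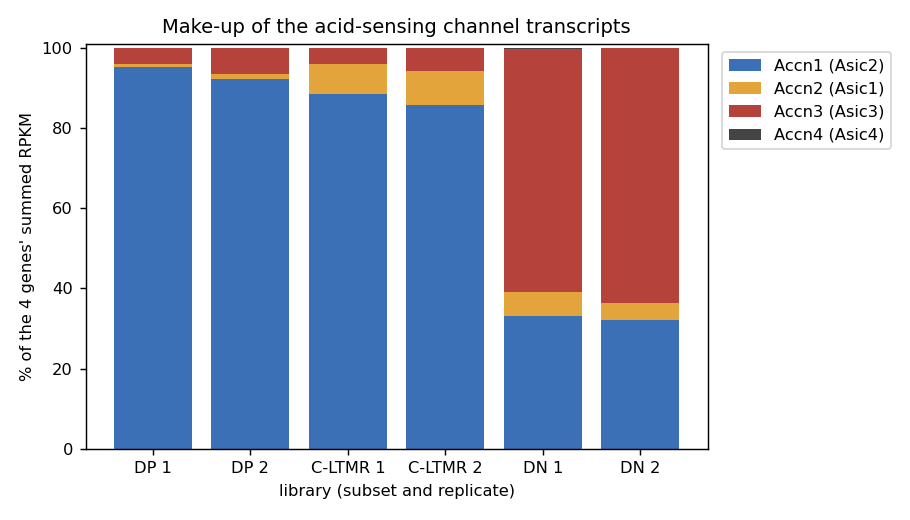
Share of each acid-sensing channel gene in the summed RPKM of the 4 genes, as 1 stacked bar per library in percent. Accn1 fills 85.9% to 95.3% of the DP and C-LTMR bars, and Accn3 fills 60.7% and 63.6% of the DN bars.

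Accn1 encodes ASIC2 (Entrez 11418, GRCm38 chromosome 11, 80880165 to 81968396, minus strand), a subunit with a form that on its own opens only at strong acidity. It joins the other subunits in mixed channels. The gene was at 60.3 and 60.9 RPKM in DP, 63.1 and 63.3 RPKM in C-LTMR and 21.3 and 15.3 RPKM in DN. Both GINIP+ subsets lay above DN. Accn1 was 3.34-fold higher in DP than in DN (log2 fold change 1.74 with an SE of 0.15, limma BH-adjusted p = 0.0001318) and 3.48-fold higher in C-LTMR than in DN (1.801, SE 0.15, limma BH-adjusted p = 0.000113). Rescaled to the pan-sensory-neuron genes the log2 fold changes were 1.52 and 1.30, and both remained called. Between DP and C-LTMR the interval of the log2 fold change ran from -0.42 to 0.30. Its transcripts with different first exons share 1 value in the table, and 2 genes that overlap it were at no more than 0.0506 RPKM. The pattern of Accn1 was nearest to those of 9430091E24Rik, Map3k9 and Parm1, with root mean square differences of 0.0802, 0.0815 and 0.0843. Parm1 averaged 242 RPKM in DP and 272 in C-LTMR, against 68.5 in DN.

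Accn3 encodes ASIC3 (Entrez 171209, GRCm38 chromosome 5, 24413451 to 24417834, plus strand), the acid-sensing channel best known from sensory neurons that innervate muscle, heart and joints, which opens at mild acidity. It was at 2.43 and 4.35 RPKM in DP, 2.82 and 4.17 RPKM in C-LTMR and 39.0 and 30.3 RPKM in DN. DN was the highest, far from the other subsets, which overlapped each other. The gene was 10.3-fold lower in DP than in DN (log2 fold change -3.36 with an SE of 0.31, limma BH-adjusted p = 0.000161) and 9.76-fold lower in C-LTMR than in DN (-3.29, SE 0.31, limma BH-adjusted p = 0.0001758). Between DP and C-LTMR the interval ran from -0.81 to 0.66, and the sign turned when single libraries were left out or the scaling changed. Of the 6 peptidergic neuron markers 5 followed the same split. Their sums were 1483 and 1327 RPKM in DP, 1648 and 1577 in C-LTMR and 8849 and 8019 in DN, and 5 of the 6 were called lower in each GINIP+ subset than in DN (25.5% of all tested genes in DP and 23.5% in C-LTMR). Trpm8 reached the filter through DN alone, so that a call in this direction was built in. Without it 4 of the other 5 were called lower in each comparison with DN. Calcb, a calcitonin gene-related peptide gene, went the other way and was called higher in DP than in DN (means of 548 RPKM in DP and 257 in DN, log2 fold change 1.1). The glial and vessel sums were also highest in DN, and the part of any of these cells in the Accn3 difference was not tested.

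Accn2 encodes ASIC1 (Entrez 11419, GRCm38 chromosome 15, 99670718 to 99701128, plus strand), the subunit common to acid-sensing channels of central neurons. It was at 0.506 and 0.821 RPKM in DP, 5.24 and 6.21 RPKM in C-LTMR and 3.90 and 2.01 RPKM in DN. DP was the lowest without overlap, and the DN libraries lay further apart than those of C-LTMR. Accn2 was 7.77-fold lower in DP than in C-LTMR (log2 fold change -2.96 with an SE of 0.34, limma BH-adjusted p = 0.001085), or -2.02 with a pseudocount of 1 RPKM. In DP over DN it was 3.89-fold lower (-1.96, SE 0.34, limma BH-adjusted p = 0.002648), or -1.20 after quantile normalization. In C-LTMR over DN the log2 fold change of 0.998 (95% interval 0.19 to 1.81, limma BH-adjusted p = 0.0414) fell just short of the fold criterion. It passed with DN replicate 1 left out (1.46, limma BH-adjusted p = 0.0082) and after quantile normalization (1.45, limma BH-adjusted p = 0.0172). In other settings the adjusted p rose above 0.05, among them without DN replicate 2 (0.54, limma BH-adjusted p = 0.173), with C-LTMR replicate 2 left out (0.88, limma BH-adjusted p = 0.156), rescaled to the pan-sensory-neuron genes (0.51, limma BH-adjusted p = 0.167), with no filter (limma BH-adjusted p = 0.167) and with the replicate block (limma BH-adjusted p = 0.0503). Accn3 was 4.8 and 5.3 times as abundant as Accn2 in DP, 0.539 and 0.672 times in C-LTMR and 10.0 and 15.1 times in DN.

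Accn4, which encodes ASIC4, a family member that makes no proton-gated current on its own (Entrez 241118, GRCm38 chromosome 1, 75450510 to 75474340, plus strand), was at 0.0269 and 0.00739 RPKM in DP, 0.0509 and 0.0201 in C-LTMR and 0.0557 and 0.0237 in DN. These are at most an estimated 5.7 reads per library, and 3 reads are worth 0.027 to 0.035 RPKM. The gene lay under the filter and no difference was tested in the fit.

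The DN libraries differed from each other in a direction shared by most members. Fam38b, Stoml1, Accn1, Accn2 and Accn3 were lower in DN replicate 2 than in replicate 1, and Stom was higher. Beside this, all 12 pan-neuron genes were lower in replicate 2 and all 12 vessel and connective tissue markers were higher. Of the 12 glial markers 7 were higher, among them Apoe and Fabp7, which carry most of the sum, and 5 were lower, the myelin genes Mbp, Pmp22, Cldn19, Ncmap and Prx. Their part in these differences was not tested.

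**Figure D4:**
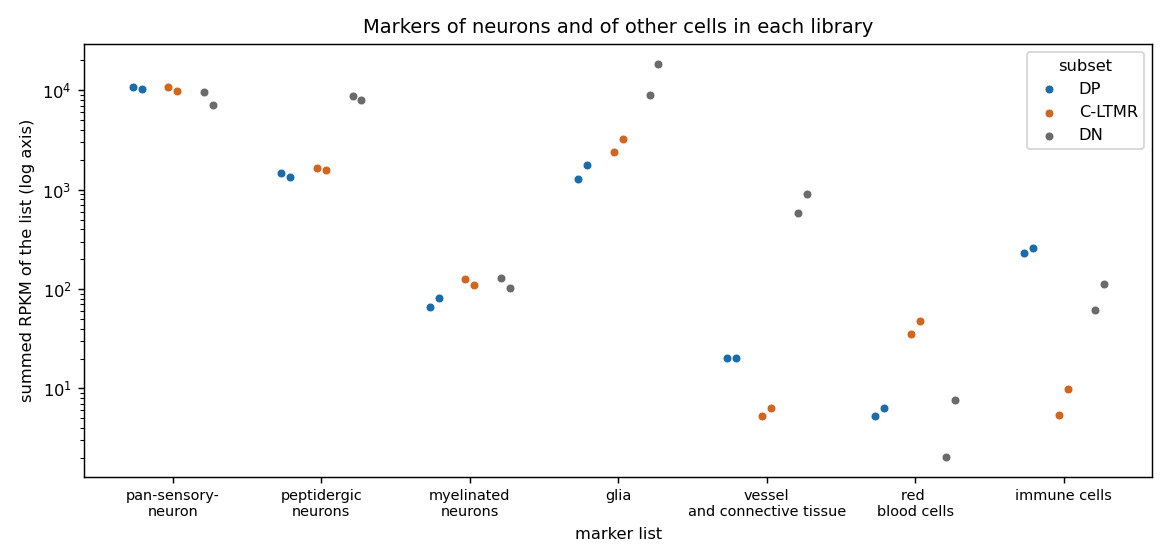
Summed RPKM of 7 marker lists on a log axis, with 1 point per library and the subsets from left to right as DP, C-LTMR and DN. Peptidergic, glial and vessel sums are highest in DN, red blood cell sums are highest in C-LTMR, and immune sums are lowest in C-LTMR.

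Promoters are shown for Stoml1 and Accn1, which were both higher in the GINIP+ subsets than in DN, for Accn3, which went the other way, and for Stom, which was low in C-LTMR. Each is the 250 bases before an annotated start of the RefSeq GRCm38.p6 table, 5′ to 3′ on the gene's strand, at chr9:58252914-58253163 (plus) for Stoml1, chr11:81968397-81968646 and chr11:81152904-81153153 (minus) for the outer and the inner start of Accn1, chr5:24413201-24413450 (plus) for Accn3 and chr2:35337010-35337259 (minus) for Stom. Capitals mark matches to the letters TGTGGT or ACCACA, the core bound by RUNX factors, GGGCGG or CCGCCC, the GC box, and TATAAA or TTTATA, the TATA box, on either strand, with no overlap among these matches.
Stoml1: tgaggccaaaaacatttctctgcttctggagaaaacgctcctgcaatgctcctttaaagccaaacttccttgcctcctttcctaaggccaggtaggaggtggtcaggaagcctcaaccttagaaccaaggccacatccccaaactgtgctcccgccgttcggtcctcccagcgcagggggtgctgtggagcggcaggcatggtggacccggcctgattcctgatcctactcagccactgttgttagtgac
Accn1 (outer start): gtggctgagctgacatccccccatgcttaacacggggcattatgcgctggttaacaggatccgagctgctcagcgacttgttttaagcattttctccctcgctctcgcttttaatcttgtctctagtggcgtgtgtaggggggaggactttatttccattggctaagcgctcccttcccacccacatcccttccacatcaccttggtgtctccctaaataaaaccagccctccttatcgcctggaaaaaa
Accn1 (inner start): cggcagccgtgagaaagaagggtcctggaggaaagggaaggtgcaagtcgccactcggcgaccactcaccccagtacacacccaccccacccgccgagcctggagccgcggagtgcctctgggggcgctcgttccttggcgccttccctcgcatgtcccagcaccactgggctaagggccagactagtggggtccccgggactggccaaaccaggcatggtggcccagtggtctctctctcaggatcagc
Accn3: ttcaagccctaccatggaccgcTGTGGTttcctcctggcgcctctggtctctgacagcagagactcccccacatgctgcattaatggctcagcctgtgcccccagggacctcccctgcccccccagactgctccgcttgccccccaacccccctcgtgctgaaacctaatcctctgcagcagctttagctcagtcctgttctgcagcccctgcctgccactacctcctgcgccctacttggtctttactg
Stom: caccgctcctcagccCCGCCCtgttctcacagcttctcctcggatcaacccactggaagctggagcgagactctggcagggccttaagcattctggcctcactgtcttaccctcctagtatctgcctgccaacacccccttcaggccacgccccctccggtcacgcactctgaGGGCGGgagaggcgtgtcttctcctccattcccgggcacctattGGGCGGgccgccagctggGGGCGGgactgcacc

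Neither the Stoml1 promoter nor the Accn1 promoters held any of these letters, so Stoml1 and Accn1 shared no match. Fam38b, also called higher in both GINIP+ subsets than in DN, was not among the promoters examined. The Accn3 window held 1 RUNX match and no GC box, and that of Stom held 4 GC box matches. Among members whose promoters are not printed, the even gene Stoml2 held 1 RUNX and 1 GC box match. Stoml3 and Accn2 held no match. Of all 32851 promoters of the same length, 14.0% held a RUNX match, 32.7% a GC box match and 12.4% a TATA match. The Stom window was 65.2% G or C with 13 CpG, the inner Accn1 window 66.4% with 14, the outer one 51.2% with 9, that of Accn3 61.6% with 5 and that of Stoml1 56.0% with 7, where the medians over all promoters were 52.4% and 6. A match describes the letters alone.

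Relatives of these genes were counted from the same fit. The 4 sodium channel genes nearest to the acid-sensing channels (Accn5, Scnn1a, Scnn1b and Scnn1g) all lay under the filter, and Accn5 and Scnn1b were at 0 in every library. Of 7 genes for other stomatin-domain proteins, such as prohibitins and flotillins, 6 were tested and none was called in any comparison. Over all tested genes 15.2% were called in DP over C-LTMR, 33.3% in DP over DN and 32.1% in C-LTMR over DN. By limma, 2 of the 6 had an adjusted p under 0.05 in each comparison (also 2 by unadjusted p), with log2 fold changes under 1 in size.

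Of 13 other channels proposed to be gated by force, 11 were tested. In DP over C-LTMR 3 were called higher and 2 lower, in DP over DN 3 higher and 4 lower, and in C-LTMR over DN 3 higher and 4 lower. Over all tested genes the shares called higher and lower were 6.65% and 8.52%, 7.75% and 25.5%, and 8.58% and 23.5% in that order. Kcnk2, the stretch-sensitive potassium channel TREK-1, was at 0.828 and 0.632 RPKM in DP, 0.206 and 0.227 in C-LTMR and 14.4 and 12.4 in DN (log2 fold change -4.03 in DP over DN and -5.41 in C-LTMR over DN, with BH-adjusted p = 1.55e-05 and 6.13e-06 from limma). Its relatives Kcnk4 (TRAAK) and Kcnk10 (TREK-2) were also lower in both GINIP+ subsets than in DN, by 2.59 and 2.37 on the log2 scale in DP and by 1.803 and 2.48 in C-LTMR. Trpv4, an osmotically activated cation channel, averaged 0.216 ± 0.0263 RPKM in DP and 1.61 ± 0.0515 in C-LTMR, against 0.668 ± 0.13 in DN and was called in all 3 comparisons. Fam38a, the gene of Piezo1, chosen here after its values were seen, was at 0.0909 and 0.0469 RPKM in DP, 0.0262 and 0.0285 in C-LTMR and 0.178 and 0.203 in DN, so that Piezo2 was the more abundant Piezo gene in every library. It reached the filter through DN alone, and without it 3 of the other 10 were called lower in C-LTMR over DN. Tmem63a, Tmem63c and Kcnk2 were the 3 called higher in DP than in C-LTMR and Tmem63b and Trpv4 the 2 called lower, again named after their values were seen.

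All 11 genes for proteins reported to bind or modulate Piezo2 or acid-sensing channels were tested. None was called in DP over C-LTMR by limma (5 had an unadjusted p under 0.05 and 2 an adjusted one), where 15.2% of all tested genes were. The shares of all tested genes called higher and lower were 7.75% and 25.5% in DP over DN and 8.58% and 23.5% in C-LTMR over DN. Magi1, a membrane scaffold gene, was the 1 called higher in each GINIP+ subset than in DN, with means of 25.4 ± 0.148 RPKM in DP and 35.1 ± 1.87 in C-LTMR, against 6.93 ± 1.32 in DN (log2 fold change 1.87 in DP over DN and 2.34 in C-LTMR over DN, with BH-adjusted p = 6.82e-05 and 2.86e-05 from limma). Mdfic and Mdfi, genes of the MyoD family inhibitor proteins that bind Piezo channels, were the 2 called lower. Mdfi reached the filter through DN alone, so that a call in this direction was built in, which leaves 1 of the other 10 called lower in each comparison with DN. Mdfic was at 0.290 and 0.266 RPKM in DP, 0.153 and 0.117 in C-LTMR and 2.92 and 5.64 in DN, and Mdfi averaged 0.0152 ± 0.0215 RPKM in DP and 0.027 ± 0.0382 in C-LTMR, against 0.244 ± 0.155 in DN. In DN Mdfic was higher in replicate 2, as the 12 vessel and connective tissue markers were, and their part was not tested.

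Of 12 other proton-sensing receptors and channels, 9 were tested, and 7 were called lower in DP than in DN and 6 lower in C-LTMR than in DN, with 0 higher in either. Otop1 and Otop3 reached the filter through DN alone, so that a call in this direction was built in, and without them 5 of 7 were called lower in DP and 4 of 7 in C-LTMR, where 25.5% and 23.5% of all tested genes were. In DP over C-LTMR 1 was called higher and 2 lower, where 6.65% and 8.52% of all tested genes were. By limma, 8 of the 9 had an adjusted p under 0.05 against DN in each GINIP+ subset, and not all were lower. Tmem206 missed the fold criterion but was higher than in DN, by 0.78 on the log2 scale in DP (adjusted p = 0.00301) and 0.92 in C-LTMR (0.00146). P2rx2, called lower in DP, was higher than in DN without a call in C-LTMR (0.56, adjusted p = 0.0355). Kcnk3, the acid-inhibited potassium channel TASK-1, was at 1.15 and 0.809 RPKM in DP, 0.835 and 0.976 in C-LTMR and 23.5 and 18.5 in DN. Trpv1, the capsaicin receptor that acid also opens, was at 7.37 and 6.17 RPKM in DP, 12.3 and 8.44 in C-LTMR and 63.8 and 37.5 in DN. Otop1, a proton channel gene, averaged 0.0754 ± 0.0106 RPKM in DP and 0.0339 ± 0.0216 in C-LTMR, against 3.09 ± 1.19 in DN. Gpr4, a proton-sensing receptor known from endothelium, averaged 0.392 ± 0.133 RPKM in DP and 0.223 ± 0.0279 in C-LTMR, against 6.78 ± 1.36 in DN, beside the vessel markers that were also highest in DN. Accn3 had the same direction as these calls, and Accn1 the opposite. Accn2 was called lower in DP over DN (log2 fold change -1.96) but was higher without a call in C-LTMR over DN (0.998).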

How the data were processed

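Total RNA of sorted cells was extracted, 50 ng was amplified and TruSeq libraries were sequenced, per the labels' protocols. The submitters' processing notes name CASAVA 1.8.2, edgeR 2.6.2 and the build GRCm38 (mm10), with no steps; the sources used here give neither aligner nor gene annotation nor strand setting. The authors deposited RPKM for 23029 genes, and a TMM-normalized count table, a signal that is not a whole number, for 6620 genes, of which 6 are members; Stoml3, Accn2 and Accn4 are not in it. Low RPKM values lay within 0.05 of a whole read in only 32.9% to 45.6% of cases, so whole reads were not recovered and no count model was fitted. Depth and read estimates cover counting error only, since amplified RNA was read without molecular identifiers.

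All 6 libraries entered 1 limma 3.58.1 fit with trend (R 4.3.3) of log2(RPKM + 0.1), a scale that understates changes of low genes, with BH adjustment in each comparison; the fit was tested on simulated data. RPKM filter, pseudocount, scaling, table, replicate block and left-out libraries were varied. Python 3.11.15, numpy 2.4.6, pandas 2.3.3 and matplotlib 3.10.9 served for the rest. Members and lists were chosen with earlier results of these data known. Every member was named; relatives were named where called, at most 4 per list by size of change, unless stated, and the 3 genes of nearest pattern for 4 members.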

Additional observations from a re-analysis of the deposited data

How the results depend on the processing

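Each result was recomputed under 16 alternatives. Over 24 results of single members, 359 of 375 alternative values kept direction and side of the threshold, 0 lost a call, 4 gained one and 12 changed sign, all of them among differences that had not been called. With a pseudocount of 1 RPKM, 1192, 3140 and 3012 genes were called in DP over C-LTMR, DP over DN and C-LTMR over DN, and in the TMM-normalized table, which holds fewer genes, 843, 1645 and 1562, with 1 member called in DP over C-LTMR since Accn2 is not in it. Rescaling to the pan-sensory-neuron genes turned Stoml2 (0.037), Accn1 (0.22) and Accn3 (0.19) in DP over C-LTMR and Stoml2 in C-LTMR over DN (-0.39); the cause was not tested. Quantile normalization moved the median of all genes by 0.35 in DP over DN and 0.27 in C-LTMR over DN, and turned Stoml3 (-0.022) and Accn3 (0.072) in DP over C-LTMR and Stoml3 in DP over DN (0.56) and C-LTMR over DN (0.58). It also raised Accn2 in C-LTMR over DN to a call (1.45). The rescaling moved the medians by 0.24 in DP over C-LTMR, -0.21 in DP over DN and -0.47 in C-LTMR over DN. With single libraries left out, the log2 fold change in DP over C-LTMR ranged from -1.04 to -0.76 for Fam38b, -0.045 to 0.19 for Stoml3 and -0.48 to 0.33 for Accn3, and that of Accn2 in C-LTMR over DN from 0.54 to 1.46. A subset left with 1 library was assumed to vary like the others. Same-numbered libraries deviated together with r = 0.29 for DP and C-LTMR, 0.09 for DP and DN and 0.23 for C-LTMR and DN. All of these were positive, and the main fit did not pair the libraries by number. With a replicate block 2442, 5208 and 5018 genes were called, close to the 2358, 5172 and 4993 without it.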
